A study of Mus musculus with 48 samples.

Results

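Lysosomes are the organelles in which cells break down what they take up and what they recycle. Acid hydrolases digest the cargo inside, heavily glycosylated membrane proteins line the limiting membrane, and small cofactor proteins move lipids and growth factors within. In the brain every cell type carries lysosomes, and microglia, the resident phagocytes, carry many, so that some lysosomal genes serve as labels of phagocytic cells while others are used by neurons and glia alike.

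The 9 genes described here encode lysosomal membrane proteins, hydrolases and luminal proteins, and were chosen by gene symbol from the 48709 genes counted in every library. The membrane proteins are Lamp1, Lamp2, Laptm5 and Cd68. Hexa, Gusb and Lyz2 encode enzymes, and Npc2 and Grn encode the luminal cholesterol carrier and progranulin. All 9 are annotated as protein-coding, their symbols matched 1 Ensembl gene each in the GENCODE M21 annotation of mm10, the build of every gene position below, and all 9 passed the filter on low counts in every comparison.

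The series measured mRNA by RNA-sequencing in 46 mice of the strain C57BL/6J, which the study's methods give as male. Dentate gyrus of Fmn2-/- mice, which carry a disrupted Fmn2 gene, and of wild-type (Fmn2+/+) mice was taken at 3 months (5 and 5 mice) and at 8 months (5 and 3 mice). A cross of Fmn2 mutants with amyloid mice was sequenced at 3 months, with 7 mice labelled FMN2-/-_APP and 9 labelled FMN2 +/+ APP, and a further set held 6 mice labelled APP and 6 labelled wild type at 4 months. In the study's amyloid line mutant human APP is driven in neurons by Thy1 promoter sequences, and none of the groups was given a drug according to the labels. The 4 Fmn2 groups carry no APP transgene by their labels.

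The labels were checked against the counts first. Fmn2 stood at 104.5 ± 7.85 CPM (read counts scaled to library size over all mice) in Fmn2+/+ and 25.6 ± 2.33 in Fmn2-/- mice at 3 months (SD, n = 5 and 5), but at 92.4 ± 7.21 in mice labelled FMN2-/-_APP (SD, n = 7) and 20.8 ± 1.49 in mice labelled FMN2 +/+ APP (SD, n = 9). The Fmn2 labels of the cross therefore go against the Fmn2 counts in every mouse, and its groups are named here by their labels only. Reads on App, which can include reads of the human transgene, were between 2687 and 3071 CPM in APP and between 1756 and 1930 in wild-type mice at 4 months. In the cross App lay between 1348 and 2209 CPM, overlapping the 1350 to 1826 of 3-month-old mice without APP, so that the counts do not settle whether every mouse of the cross carries the transgene. The 4-month libraries carry the word PFC in their titles and dentate gyrus as their tissue, and 5 dentate granule cell markers summed to between 14.4 and 22.9 CPM there, against 429 or more in every other mouse. In those 12 libraries 5 cortical neuron markers summed to between 421 and 479 CPM, against at most 224 elsewhere. Libraries held between 6818809 and 43921030 counted reads, and the lowest count of a member in any mouse was 12, for Lyz2.

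Some libraries stood apart. The 5 choroid plexus markers summed to 9260 and 6039 CPM in replicates 4 and 5 of the label FMN2 +/+ APP and to 4265 in replicate 4 of the 3-month-old Fmn2-/- mice, against at most 581 in the other 43 mice. Of the members, Lamp2 was at 138 CPM in the first of these mice, the highest of all 46, and Npc2 at 67.3 CPM in the Fmn2-/- mouse, the highest of its group. The counts of Fmn2-/- replicates 2 and 3 at 8 months differed by a chi-square per degree of freedom of 1.62. The other pairs of their group, at 9175551 to 11675280 reads, lay between 3.50 and 6.40, and pairs within other groups above 3.50. Repeat runs of 1 mouse gave 1.72 and 2.15. This measure grows with depth, and those 2 mice held 39403392 and 41603296 reads over both runs, so their values are not on a like footing. Replicates 2 and 3 are labelled as separate samples and were kept as 2.

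Of 300-base promoter windows in RefSeq (GRCm38.p6, 250 bases before to 50 after each start), all 9 members had 1. They are shown in part for 4 members: Lamp1, which was called in no comparison, and Grn, Laptm5 and Gusb, which rose in APP mice at 4 months. The capitals mark CACGTG, the core letters of the sites bound by TFEB and related factors that drive lysosomal genes, in Lamp1, and GAGGAA or its reverse complement, the core letters bound by the myeloid factor PU.1, in the others. The windows lie at chr8:13159078-13159173 (plus strand) for Lamp1, chr11:102430309-102430370 (plus strand) for Grn, chr4:130913256-130913305 (plus strand) for Laptm5 and chr5:130003000-130003032 (minus strand) for Gusb.
Lamp1: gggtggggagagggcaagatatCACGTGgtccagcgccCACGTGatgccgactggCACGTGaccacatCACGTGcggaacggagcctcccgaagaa
Grn: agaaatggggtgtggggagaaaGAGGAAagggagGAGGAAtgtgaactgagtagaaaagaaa
Laptm5: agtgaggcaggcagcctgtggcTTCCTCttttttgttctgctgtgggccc
Gusb: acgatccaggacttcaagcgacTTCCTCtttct

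Both letter strings were searched on both strands and they do not overlap each other. CACGTG occurred in 1 of the 9 members, Lamp1, which held it 4 times within the 61 bases before its start, and in 7.15% of all 32851 promoter windows. GAGGAA occurred in 5 of the 9 members, Cd68, Grn, Gusb, Lamp2 and Laptm5, and in 28.3% of all windows. The 8-letter palindrome TCACGTGA occurred in none of the 9 and in 0.974% of all windows. The matches did not divide the members by their change at 4 months. Lyz2, Hexa and Npc2 were called and held neither CACGTG nor GAGGAA, and Lamp2 held GAGGAA and was not called. Such matches describe the sequence and say nothing of binding.

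Per kilobase of exon, Lamp1 was the most abundant member in each of the 8 groups, between 87.4 ± 4.75 CPM per kilobase in wild-type mice at 4 months (SD, n = 6) and 112 ± 7.29 in mice labelled FMN2 +/+ APP (SD, n = 9). Hexa, a subunit of the enzyme that degrades gangliosides, followed at 22.2 to 40.7 in its group means, and Grn came next at 12.9 to 33.3. Lamp2, the second large membrane glycoprotein and a receptor for chaperone-mediated autophagy, lay between 7.37 and 12.04, and Npc2 between 7.90 and 12.9. In 3-month-old Fmn2+/+ mice Laptm5 at 6.29 ± 0.615 and Cd68 at 6.41 ± 0.370 (SD, n = 5 each) did not differ beyond their spread. Lyz2 (3.92 ± 0.891) and Gusb (3.09 ± 0.193) were the lowest of the 9 in that group (SD, n = 5 each). In APP mice at 4 months Lyz2, Cd68 and Laptm5 stood at 22.2 ± 2.73, 21.5 ± 2.91 and 21.3 ± 2.59 (SD, n = 6 each), 3 values that lie within 1 SD of each other and above those of Npc2 and Lamp2. Relative to its mean, Lyz2 varied more between the mice of a group than any other member in 7 of the 8 groups, and Cd68 did so in the other 1. Values per kilobase were divided by the annotated exon bases of a gene, 1996 for Hexa, 3474 for Grn and 5438 for Npc2. The ranks of members below Lamp1 depend on this divisor. In CPM, Npc2 averaged 50.2 in 3-month-old Fmn2+/+ mice, above Hexa at 44.4 and Grn at 44.9, with overlapping ranges. In APP mice at 4 months Npc2 was at 68.9, below Hexa at 81.2 and Grn at 115.6. Which transcripts were present was not tested.

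**Figure D1:**
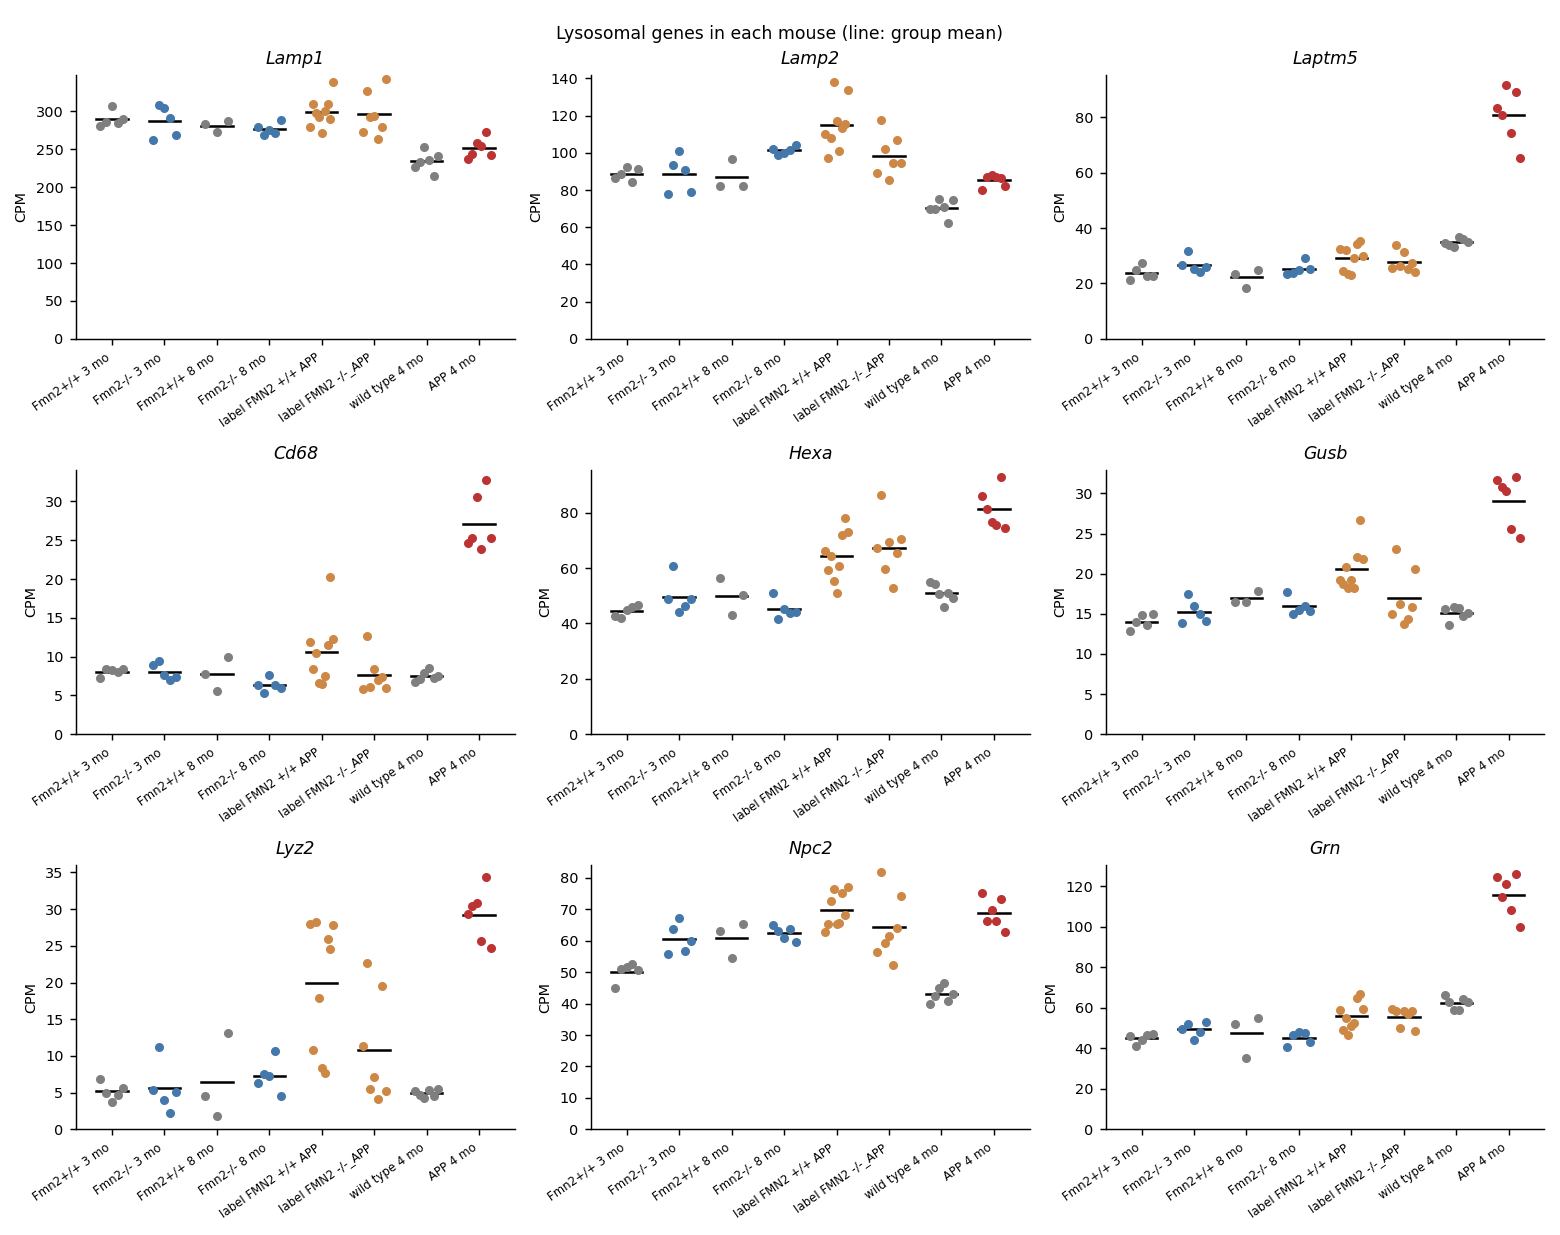
Each point is 1 mouse and each black line the mean of a group; the vertical axes give CPM from 0 for each of the 9 genes, and the horizontal axes the 8 groups. In APP mice at 4 months Cd68 lies between 23.8 and 32.7 CPM and in wild-type mice between 6.70 and 8.48, while Lamp1 overlaps between these groups and Lyz2 spreads from 4.19 to 28.2 CPM in the mice of the cross.

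The comparison of APP with wild-type mice at 4 months asks how lysosomal genes stand in amyloid-bearing brain. All 9 members were higher in APP mice, and 7 of the 9 were called, that is, had an adjusted p under 0.05 and a log2 fold change of at least 0.5. Over all 16733 genes tested 2.34% were called in either direction. The median log2 fold change was 0.89 for the 9 members and -0.00041 for all genes tested. In 8 of the 9 members every APP mouse lay above every wild-type mouse, which held for 2.61% of all genes tested.

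Lyz2 (ENSMUSG00000069516, chr10:117277331-117282321), which encodes a lysozyme of macrophages and microglia, changed most. Its level was 24.7 CPM in the lowest, 29.9 in the median and 34.4 in the highest APP mouse, and 4.32, 5.01 and 5.50 in wild-type mice. The groups did not approach each other, and the lowest APP mouse held 639 reads against at most 128 in a wild-type mouse. The fold change was 5.89 (log2 2.56 with a standard error of 0.091, adjusted p = 3.49e-12, quasi-likelihood test of edgeR, Benjamini-Hochberg method, as for every adjusted p below). Lyz1, a close paralog with which Lyz2 can share reads, had at most 5 reads in these 12 mice.

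Cd68 (ENSMUSG00000018774, chr11:69664213-69666153), a heavily glycosylated membrane protein of late endosomes and lysosomes in phagocytes, lay at 23.8, 25.3 and 32.7 CPM (lowest, median and highest) in APP and at 6.70, 7.35 and 8.48 in wild-type mice. Again no mouse of either group came near the other group. The fold change was 3.63 (log2 1.86, standard error 0.090, adjusted p = 2.10e-10, edgeR). Laptm5 (ENSMUSG00000028581, chr4:130913125-130936141), a lysosomal transmembrane protein of blood-lineage cells, reached 65.2, 82.1 and 91.7 CPM in APP mice, and stood at 33.1, 34.7 and 36.7 in wild-type mice. Its fold change of 2.31 (log2 1.21, standard error 0.070, adjusted p = 2.10e-09, edgeR) was smaller than those of Lyz2 and Cd68, and the groups were as clearly apart.

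Gusb, Grn, Npc2 and Hexa rose less than Lyz2, Cd68 and Laptm5. Gusb (ENSMUSG00000025534, chr5:129989011-130003049), the beta-glucuronidase that degrades glycosaminoglycans, was at 24.4, 30.5 and 32.0 CPM in APP and at 13.6, 15.3 and 15.9 in wild-type mice, a fold change of 1.93 (log2 0.95, standard error 0.076, adjusted p = 1.39e-07, edgeR). Grn (ENSMUSG00000034708, chr11:102430315-102437048), the precursor of the granulins, was at 99.9, 118 and 126 CPM against 58.7, 62.9 and 66.2, a fold change of 1.85 (log2 0.89, standard error 0.056, adjusted p = 5.47e-09, edgeR). In both genes the lowest APP mouse lay well above the highest wild-type mouse.

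Npc2 (ENSMUSG00000021242, chr12:84754562-84773152), which hands cholesterol from the lysosomal lumen to the membrane, stood at 62.7, 68.1 and 75.3 CPM in APP and at 39.8, 42.8 and 46.6 in wild-type mice (log2 fold change 0.68, standard error 0.054, adjusted p = 1.41e-07, edgeR). Hexa (ENSMUSG00000025232, chr9:59539540-59565109) stood at 74.7, 79.0 and 92.998 against 45.9, 50.8 and 55.1 CPM (log2 fold change 0.67, standard error 0.058, adjusted p = 4.21e-07, edgeR). Both rose by about the same amount, with 95% confidence intervals of 0.57 to 0.79 for Npc2 and 0.55 to 0.79 for Hexa.

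The 2 LAMP glycoproteins, which make up much of the protein of the lysosomal membrane, were the members below the threshold. Lamp2 (ENSMUSG00000016534, chrX:38401357-38456454) lay at 80.2, 86.7 and 88.3 CPM in APP and at 62.2, 70.4 and 75.1 in wild-type mice, so the groups were apart, but its log2 fold change of 0.27 (adjusted p = 1.27e-03, edgeR, standard error 0.047) was under 0.5. Lamp1 (ENSMUSG00000031447, chr8:13159161-13175338) lay at 237, 248 and 272 against 215, 234 and 253 CPM, and the groups overlapped (log2 fold change 0.099, adjusted p = 0.335, edgeR). The 95% confidence interval of the Lamp1 difference reached from 0.0024 to 0.20. The order of the members by fold change thus ran from Lyz2 to Lamp1, the most abundant member in every group.

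**Figure D2:**
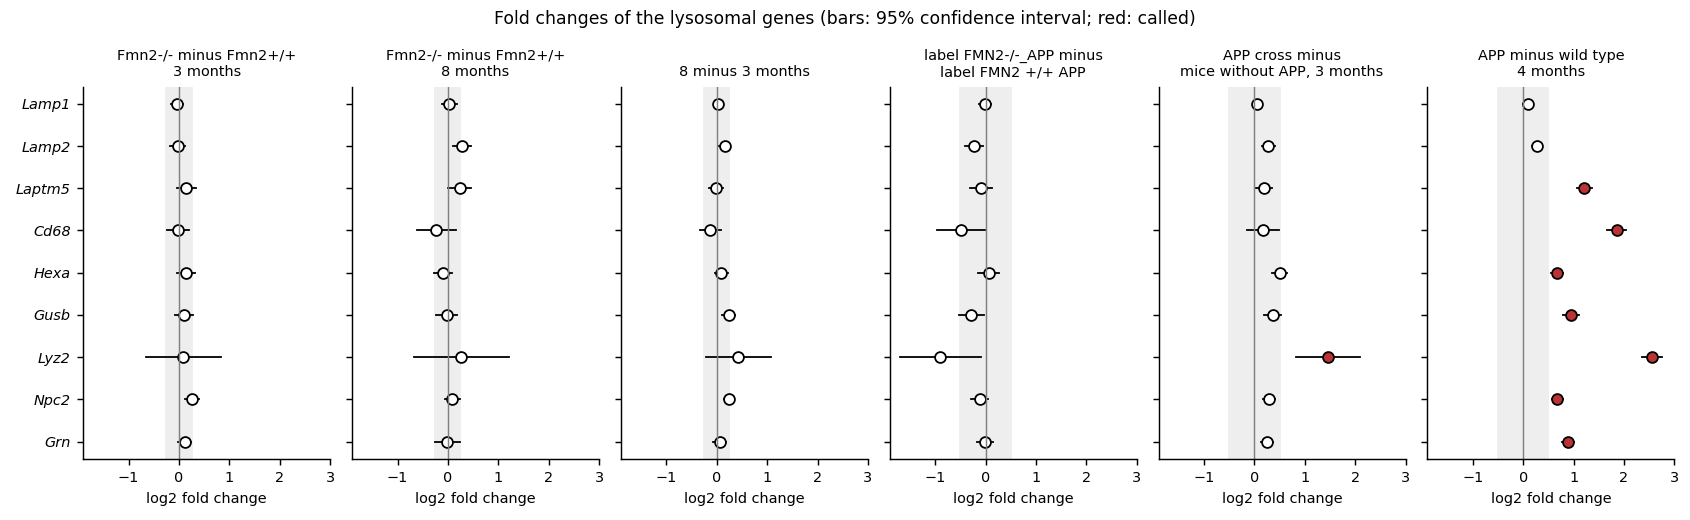
Points give the log2 fold change of each of the 9 genes in 6 comparisons and bars its 95% confidence interval; filled points were called and the grey band marks changes under the fold threshold. At 4 months 7 genes lie beyond the band, from Hexa at 0.67 to Lyz2 at 2.56, and in the panels of Fmn2 genotype and age none is filled.

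Further lysosomal genes were listed by function. At 4 months 2.34% of all genes tested were called. Of 33 further lysosomal hydrolases 30 were higher, with a median log2 fold change of 0.086. The 4 called were all higher. Among them were Naglu (0.66, adjusted p = 4.23e-05, edgeR) and Man2b1 (0.65, adjusted p = 5.26e-08), which trim glycosaminoglycans and mannose-rich glycans, as well as Dnase2a (0.56, adjusted p = 3.53e-04), the lysosomal DNase. None of 19 further membrane proteins and cofactors and none of 10 genes of lysosomal sorting and regulation was called, with medians of 0.010 and -0.032. At edgeR's unadjusted p under 0.05 there were 12 of the 33 hydrolases and 3 and 1 genes of the other 2 lists, beside 2396 of all 16733 genes.

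Microglial genes were higher in the same mice. All 10 microglia markers were higher and 8 of them were called (median 0.77). The summed level of the 10 was 471 to 599 CPM in APP and 307 to 336 in wild-type mice. Lyz2, Cd68 and Laptm5 had larger fold changes than that median, Grn and Gusb slightly larger and Npc2 and Hexa smaller ones. All 10 genes of plaque-associated microglia were higher and 8 of them were called (median 2.12). Of 8 markers of perivascular and blood myeloid cells 4 passed the filter and none was called, and their sum was 6.83 to 9.07 CPM against 4.74 to 8.01. All 5 astrocyte markers were higher and 1 was called, Gfap. All 5 oligodendrocyte markers were lower (median -0.79, each with an unadjusted p under 0.05). Their sum was 1216 to 1900 CPM in APP and 1991 to 5730 in wild-type mice, where replicates 3 and 4 stood apart at 5730 and 3656. Without these 2 mice, an exclusion chosen after seeing the data, 7 members were called as before, from Hexa at 0.63 to Lyz2 at 2.55. In bulk tissue more cells of a type and more RNA per cell cannot be told apart, and the part of these cell types in the members' fold changes was not tested. All APP mice and all wild-type mice of this age were sequenced on different lanes, so genotype and lane cannot be told apart either.

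**Figure D3:**
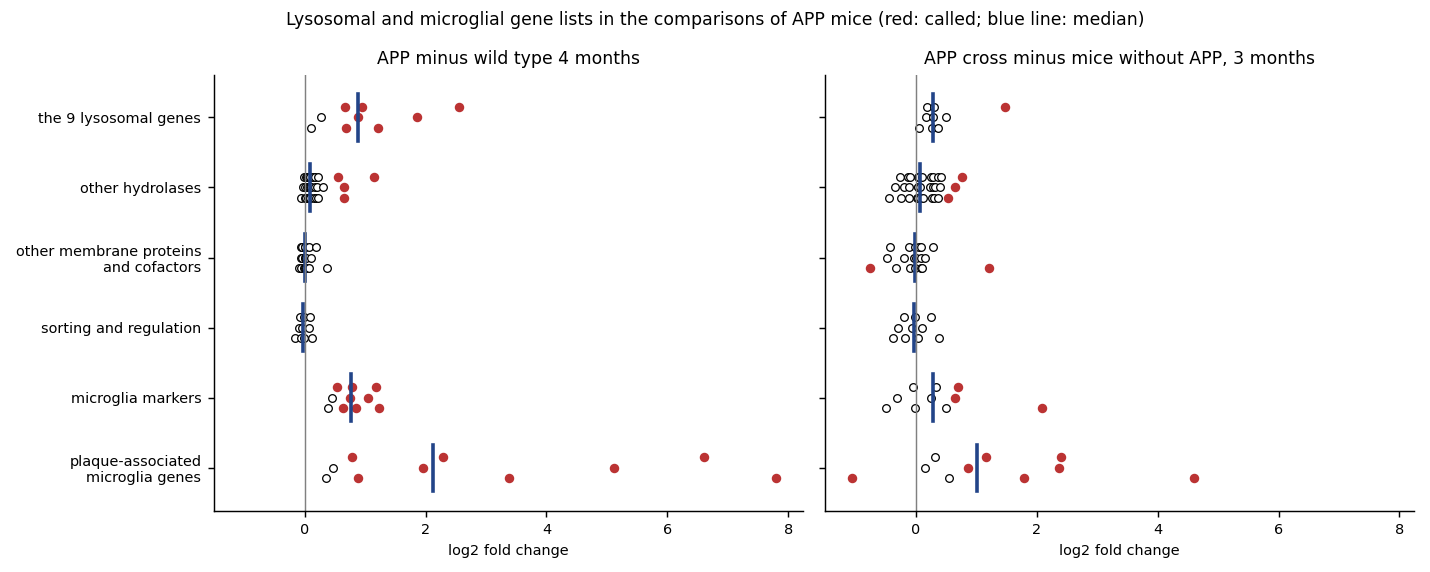
Each point is the log2 fold change of 1 gene in APP against wild-type mice at 4 months (left) and in the APP cross against mice without APP at 3 months (right), in rows for the 9 genes, 3 lists of other lysosomal genes and 2 lists of microglial genes. Filled points were called and blue lines mark medians, which at 4 months are 0.89 for the 9 genes, 0.086 for other hydrolases and 2.12 for plaque-associated microglia genes.

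In the dentate gyrus the mice of the APP cross were set against all 3-month-old mice without APP, with both Fmn2 genotypes weighing equally on either side. All 9 members were higher in the cross, and 1 of 9, Lyz2, was called, beside 16.5% of all 17599 genes tested. The 3-month-old mice without APP are also those of the Fmn2 comparison at that age, and the mice of the cross those of the comparison of its labels. The cross was a separate experiment, and experiment and amyloid cannot be told apart. Since App and Thy1 of some mice of the cross lay in the range of mice without APP, the values below describe mice labelled APP, not mice shown to carry the transgene. The median log2 fold change was 0.28 for the members and 0.019 for all genes.

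Lyz2 was at 4.19, 7.08 and 22.7 CPM (lowest, median and highest) in mice labelled FMN2-/-_APP and at 7.71, 24.6 and 28.2 in mice labelled FMN2 +/+ APP. In mice without APP it was 6.85, 5.01, 3.68, 4.66 and 5.58 CPM in the 5 Fmn2+/+ mice and 5.43, 11.2, 3.98, 2.22 and 5.03 in the 5 Fmn2-/- mice. Some mice of the cross thus stood at the level of mice without APP and others at the level of the 4-month APP mice. The log2 fold change was 1.47 (standard error 0.31, adjusted p = 3.21e-04, edgeR).

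Hexa was at 52.7, 67.3 and 86.4 CPM in mice labelled FMN2-/-_APP, at 51.1, 64.5 and 78.0 in mice labelled FMN2 +/+ APP, and at 42.1 to 60.7 in the 10 mice without APP. Every mouse of the cross lay above 9 of the 10 mice without APP, and the exception was 1 Fmn2-/- mouse at 60.7, replicate 2. Its log2 fold change of 0.4992 (adjusted p = 4.28e-06, edgeR, standard error 0.074) fell just short of the threshold of 0.5. In 15 of 33 alternatives it passed that threshold. With a correction for exon length and GC content it was 0.39. Without the 3 mice high in choroid plexus markers, a choice made after seeing the data, it was 0.51 (adjusted p = 4.83e-06, edgeR), so that 2 members were called, and Lyz2 stood at 1.49 (adjusted p = 7.25e-04).

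A further 5 members had an adjusted p under 0.05 with smaller fold changes: Gusb at 0.36 (5.87e-04), Npc2 at 0.29 (2.21e-04), Lamp2 at 0.28 (4.87e-04), Grn at 0.26 (5.80e-04) and Laptm5 at 0.18 (0.0478, each edgeR's adjusted p). With the correction for exon length and GC content Laptm5 was at 0.074 (adjusted p = 0.478) and Grn at 0.15 (adjusted p = 0.0647, edgeR), so that neither passed, while Lamp2 was at 0.42 (adjusted p = 1.12e-06). Laptm5 also lost its adjusted p without the filter (0.0790), under the replicate block (0.103) and without several of the mice taken 1 at a time, FMN2-/-_APP replicate 2 among them (0.0824). Cd68 at 0.17 (95% confidence interval -0.16 to 0.49, adjusted p = 0.396) and Lamp1 at 0.056 (-0.032 to 0.14, adjusted p = 0.292, edgeR) did not pass. Next to the 4-month comparison, Cd68 had a log2 fold change of 1.86 there and 0.17 here, Laptm5 1.21 and 0.18, and Grn 0.89 and 0.26, while Hexa had 0.67 and 0.50 and Lamp2 0.27 and 0.28. Tissue, age and experiment all differ between both comparisons, and the differences between them were not tested.

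The mice of the cross differed widely among themselves. Cst7, which encodes a cysteine protease inhibitor that microglia make around plaques and which was chosen after its values were seen, lay at 0 to 8.42 CPM in mice labelled FMN2-/-_APP and at 0.040 to 12.3 in those labelled FMN2 +/+ APP, against at most 0.31 in 3-month-old mice without APP and 29.4 to 40.2 in APP mice at 4 months. The mouse with the highest Cst7 of the cross, replicate 8 of the label FMN2 +/+ APP, also had its highest Cd68 at 20.2 CPM and its highest Gusb at 26.7. The mouse with the highest Cst7 of the other label, replicate 2 of FMN2-/-_APP, likewise had the highest Cd68 (12.7 CPM), Lyz2 (22.7), Hexa (86.4) and Gusb (23.1) of its group. At the other end, FMN2-/-_APP replicate 1 had no read of Cst7 and 5.86 CPM of Cd68, the lowest of its group. Lamp1 stood at 290 CPM in the first of these mice, 327 in the second and 273 in the third. Other mice did not follow Cst7. FMN2-/-_APP replicate 4, second in Cst7 of its group at 1.20 CPM, had its lowest Gusb (13.7) and 7.08 CPM of Lyz2. Lyz2 was at 19.5 CPM in FMN2-/-_APP replicate 6 (Cst7 0.38), at 17.96 in FMN2 +/+ APP replicate 4 (Cst7 0.064) and at 11.3 in the mouse without Cst7 reads. Thy1, whose promoter sequences drive the transgene, was also seen first and lay at 785 to 1689 CPM and at 814 to 1894 in the groups of the cross, against 793 to 920 in 3-month-old mice without APP and 1830 to 2379 in APP mice at 4 months.

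**Figure D4:**
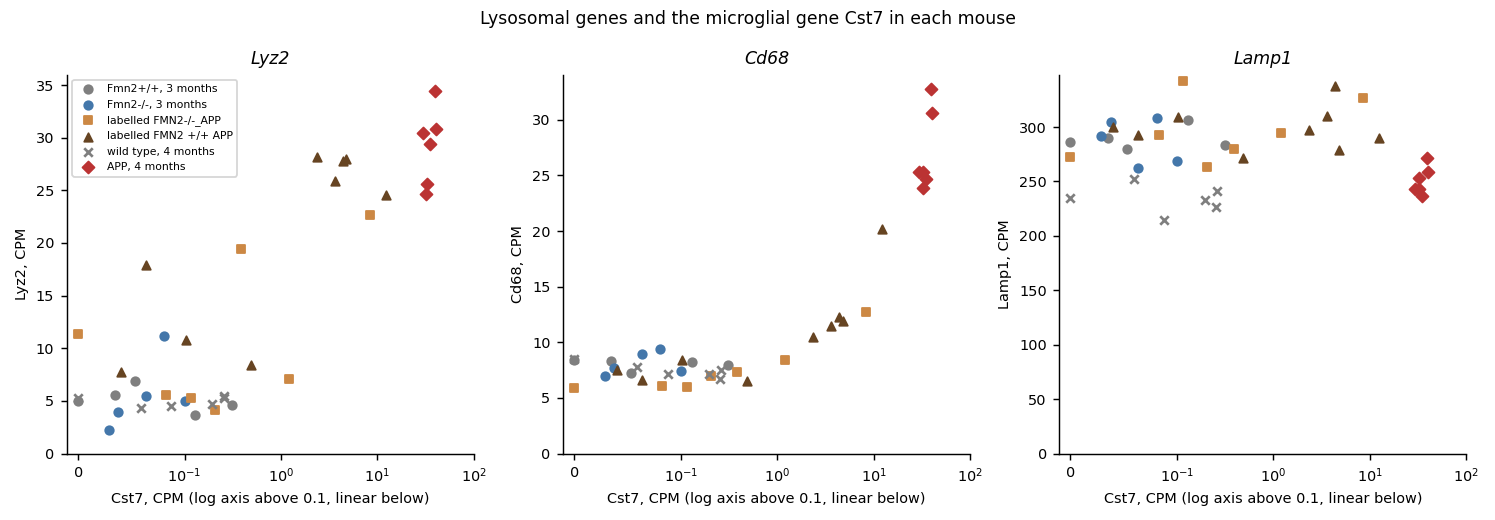
Each point is 1 mouse, with the level of Cst7 on the horizontal axis (CPM, logarithmic above 0.1) and that of Lyz2, Cd68 or Lamp1 on the vertical axis (CPM from 0). Among mice of the cross Cd68 runs from 5.86 CPM in a mouse without Cst7 reads to 20.2 in the mouse with 12.3 CPM of Cst7, below the 23.8 to 32.7 of APP mice at 4 months, and Lyz2 reaches 17.96 and 19.5 in 2 mice with under 0.5 CPM of Cst7.

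The shares of called genes in the lists below stand beside 16.5% of all 17599 genes called in the cross. Other lysosomal genes that were called there were 3 of 33 hydrolases, all higher. Among these hydrolases were Aga (log2 fold change 0.76, adjusted p = 1.35e-06, edgeR) and Scpep1 (0.53, adjusted p = 5.95e-06). Of 19 membrane proteins and cofactors Cd63, a tetraspanin, was higher (1.21, adjusted p = 4.11e-10, edgeR) and Lamp5, a relative of Lamp1 found in neurons, lower (-0.76, adjusted p = 1.27e-06). None of 10 genes of sorting and regulation was called. With edgeR 6 of the 10 had an unadjusted p under 0.05, beside 9731 of all 17599 genes. Of 10 microglia markers 6 were higher, and the 3 called were all higher (Siglech, Fcrls and Olfml3). P2ry12 was not called. It lay at 29.3 to 55.7 CPM under the label FMN2-/-_APP and at 32.0 to 61.9 under FMN2 +/+ APP. Without APP it was at 58.6 to 73.9 in Fmn2+/+ and 55.4 to 74.7 in Fmn2-/- mice. Of the plaque-associated genes 6 of 10 were called higher and Lpl lower. Of the perivascular and blood myeloid markers 3 of 8 were called higher (Lyve1, Pf4 and S100a9). The summed microglia markers were 265 to 375 CPM in the cross and 253 to 342 in mice without APP. In the same mice 4 of 5 oligodendrocyte and 4 of 5 cortical neuron markers and 2 of 5 neuron markers were called lower. The part of these shifts in the members' values was not tested.

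Within the cross the labels were compared as given. None of the 9 members was called between mice labelled FMN2-/-_APP and FMN2 +/+ APP, where 0.774% of 16656 genes were. DESeq2 called none of the 9 either. At edgeR's unadjusted p under 0.05 there were 4 members (Lyz2, Cd68, Lamp2 and Gusb), beside 2772 of all 16656 genes. Lyz2 was lower by 0.89 on the log2 scale (95% confidence interval -1.71 to -0.082, adjusted p = 0.251, edgeR) and Cd68 by 0.49 (-0.97 to -0.0015, adjusted p = 0.299) in mice with the label FMN2-/-_APP, which have the higher Fmn2 counts. The Cd68 ranges of 5.86 to 12.7 and 6.51 to 20.2 CPM overlapped, with 3 of the 7 FMN2-/-_APP mice below every mouse of the other label and 1 FMN2 +/+ APP mouse above every other. Without the mice high in choroid plexus markers no member was called either, with Lyz2 at -1.03 and Cd68 at -0.64, and 56 genes were called in place of 129. Lamp2 (-0.22, adjusted p = 0.182) and Gusb (-0.28, adjusted p = 0.228, edgeR) did not pass either, and the other 5 members lay between -0.12 and 0.063. Of the 3 other lysosomal lists no gene was called (5, 4 and 1 had an unadjusted p under 0.05 with edgeR). Of 10 plaque-associated genes 9 were tested, none of them was higher, and 1, Clec7a, was called lower.

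Between Fmn2-/- and Fmn2+/+ mice at 3 months none of the 9 members was called by edgeR or DESeq2. With edgeR 1 member had an unadjusted p under 0.05, beside 1750 of all 16630 genes. Over all 16630 genes tested 0.0301% were called, 5 genes. The thresholds in the Fmn2 comparisons were an adjusted p under 0.05 and a log2 fold change of at least 0.25. The widest difference relative to its spread was in Npc2, at 44.9, 50.9, 51.6, 52.7 and 50.8 CPM in Fmn2+/+ and 55.8, 63.7, 67.3, 56.7 and 60.03 in Fmn2-/- mice. The log2 fold change of 0.25 did not pass the correction (standard error 0.065, adjusted p = 0.230, edgeR). All 5 Fmn2+/+ mice and 1 Fmn2-/- mouse were sequenced on lane 5 and the other 4 on lane 6, and with lane in the model the Npc2 difference was 0.14. Of the other 8 members, the fold changes lay between -0.036 (Lamp1) and 0.15 (Laptm5), and their 95% confidence intervals all included 0. Lyz2 had the widest interval, from -0.66 to 0.83.

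At 8 months again none of the 9 was called by edgeR, while 1.13% of 14665 genes were. With edgeR 2 of the 9 had an unadjusted p under 0.05, beside 3419 of all 14665 genes. Lamp2 was at 82.3, 96.5 and 82.4 CPM in the 3 Fmn2+/+ mice and at 102.1, 99.05, 99.7, 101.6 and 104.1 in the 5 Fmn2-/- mice. The log2 fold change of Lamp2 was 0.28 (standard error 0.080, adjusted p = 0.0905, edgeR). DESeq2 called Lamp2 with an adjusted p of 0.0370, and edgeR did so without Fmn2+/+ replicate 2 (0.38, adjusted p = 2.25e-03), whereas a correction for exon length and GC content left 0.090 (adjusted p = 0.459). Lamp2 has 9552 bases of exon, and its longest transcript has a GC content of 38.7%. Across genes the fold changes of this comparison ran with exon length (Spearman rho 0.354) and against GC content (-0.444). With Fmn2-/- replicates 2 and 3 summed as 1 sample the Lamp2 adjusted p was 0.170. Laptm5 followed at 0.23 (adjusted p = 0.209) and Cd68 at -0.23 (adjusted p = 0.452, edgeR). Lyz2 ranged from 1.75 to 13.2 CPM among the 3 Fmn2+/+ mice alone, with 12 reads in the lowest. Fmn2+/+ replicate 1 was sequenced on lane 6, with 43921030 reads in all. The other 2 Fmn2+/+ mice and all 5 Fmn2-/- mice were on lane 7, with 6818809 to 11675280 reads.

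Age was compared with both Fmn2 genotypes in the model. Lane and depth ran with age. On lane 7 were 5 Fmn2-/- and 2 Fmn2+/+ mice of 8 months and no 3-month-old mouse of this comparison. Median reads were 8381078 (Fmn2+/+) and 9943023 (Fmn2-/-) at 8 months. At 3 months they were 23137670 and 32856438. Of the 9 members none passed both thresholds between 8 and 3 months with edgeR or DESeq2, against 6.3% of 17046 genes. With edgeR 3 members had an unadjusted p under 0.05, beside 4588 of all 17046 genes. Npc2 and Gusb had adjusted p values under 0.05 with log2 fold changes of 0.24 each (adjusted p = 2.92e-03 and 0.0125, edgeR), just under the threshold of 0.25. Npc2 was at 44.9 to 67.3 CPM in the 10 younger and 54.5 to 65.3 in the 8 older mice, and Gusb at 12.8 to 17.4 and 15.01 to 17.8, so both genes overlapped between ages. With lane in the model the difference in Gusb was 0.0047 and in Npc2 0.13. The interaction of genotype and age was called for none of the 9 by edgeR or DESeq2, beside 3.73% of 17046 genes. With edgeR 1 member had an unadjusted p under 0.05, beside 3910 of all 17046 genes. The largest value among members by size was 0.29 for Lamp2 (adjusted p = 0.105, edgeR), which became -0.0020 with the correction for exon length and GC content. Of the other lysosomal genes Aga (0.35), Scpep1 (0.31) and Cd63 (0.50) were called higher at 8 months and Arsb lower (-0.42), with edgeR's adjusted p between 1.38e-03 and 0.0294. These 4 of 62 genes are 6.45%, near the 6.3% of all genes. With lane in the model none of the 4 was called, at 0.41 for Aga, 0.095 for Scpep1, 0.17 for Cd63 and -0.45 for Arsb (edgeR's adjusted p between 0.395 and 0.884). Aga, Scpep1 and Cd63 were also higher in the APP cross, a comparison that shares the 3-month-old mice, and none of the other lysosomal genes was called in the 2 comparisons of Fmn2 genotype or in the interaction.

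The genes whose group means over the 8 groups lay closest to those of a member were sought among 14732 genes of at least 1 CPM, as the root mean square difference in centred log2 CPM. For Cd68 they were Lgals3bp (0.178), Ptpn6 (0.179) and Runx1 (0.186), and for Lyz2 they were Capg (0.194), Tyrobp (0.217) and Cybb (0.300). For Laptm5 they were Parp14 (0.133), Naip2 (0.134) and Dock2 (0.145). Lamp1, whose group means varied little (SD 0.124 on the log2 scale, against 0.661 for Cd68), had Mbtps1 (0.0287), Zfp60 (0.0297) and Slc30a7 (0.0320) closest to it. All 8 means come from 3 experiments, so likeness here also reflects what sets these experiments apart.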

How the data were processed

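RNA was isolated from whole tissue and sequenced from TruSeq mRNA libraries. The study's methods do not say whether these libraries keep the strand. The authors used STAR for alignment to mm10 and HTSeq for counting, and the deposited values are these raw counts per gene, without normalization, in 48 runs of 46 mice. The annotation release they used is not given in the sources used here. Exon lengths, GC content and positions came from GENCODE M21, which held 48349 of 48709 genes. The GC content of a gene was that of its longest transcript.

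Groups were taken from the genotype and age labels. For 2 mice with 2 runs each, the runs were summed. Comparisons were fitted by quasi-likelihood in edgeR 4.0.16 (R 4.3.3) with TMM factors, filterByExpr at a minimum count of 10 and Benjamini-Hochberg adjustment over all genes tested, and the procedure was tested on simulated data. Calls needed an adjusted p under 0.05 and a log2 fold change of at least 0.25 (Fmn2 and age) or 0.5 (APP). Levels are CPM scaled by TMM over all 46 mice. The members and lists were chosen with earlier results of these data known. All 9 members are named in every comparison, called genes of the other lysosomal lists by size (at most 4 in each direction), marker lists by counts, and genes most like a member by their group means. Some items that this rule would name are not reported here. Named in addition, after their values were seen, were App, Thy1, Cst7, Lyz1 and the called markers.

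Replicate numbers did not pair the mice: deviations of same-numbered mice correlated with a mean r between -0.031 and 0.063 in the 4 comparisons of 2 groups. Alternatives were DESeq2 1.42.0, RLE factors, no filter, a correction for exon length and GC content, the replicate block, lane, repeat libraries and leaving out each mouse. P-values set each difference against the spread between the mice of a group. They do not cover lane or experiment where these run with the comparison.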

Additional observations from a re-analysis of the deposited data

Results flagged for a closer look

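In groups of 4 to 10 mice, the gap of the highest or lowest mouse to its neighbour was compared with the range of its group by Dixon's criterion, in 63 tests of 9 genes. Chance flags about 1 in 20 groups, and 5 values stood apart. Cd68 was at 12.7 CPM in FMN2-/-_APP replicate 2, with the next mouse at 8.45, and at 20.2 CPM in FMN2 +/+ APP replicate 8, with the next at 12.3. The latter mouse also had Gusb at 26.7 CPM, with the next at 22.1. Both mice had the highest Cst7 of their groups, at 8.42 and 12.3 CPM. Hexa was at 60.7 CPM in Fmn2-/- replicate 2 at 3 months, with the next at 48.9, a mouse that also had the highest Lyz2 of its group at 11.2 CPM. Npc2 was at 44.9 CPM in Fmn2+/+ replicate 1 at 3 months, the lowest of its group, with the next at 50.8. The causes were not tested.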

How the results depend on the processing

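At 4 months the 7 calls among the members held under every alternative run, without any 1 mouse too. Over all comparisons, 1327 values of members under alternatives kept their direction and their side of the thresholds, 23 passed them only under the alternative and 54 turned direction, all of these in members that were not called. The causes of the changes below were not tested. Lane could not be added at 4 months, where it coincides with genotype.

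Numbers of genes called moved more. With DESeq2 they were 91 in place of 5 (Fmn2 at 3 months), 733 in place of 166 (Fmn2 at 8 months, with 1 member), 304 in place of 129 (labels of the cross) and 1401 in place of 635 (interaction). Without the filter they were 14, 1124 and 399 for Fmn2 at 3 and 8 months and the interaction, and with RLE factors 3 at 3 months. With the correction for exon length and GC content they were 3, 34 and 27, and 1 member, Npc2, was called between ages. With lane as a covariate they were 3 at 3 months, 3 at 8 months, 1 in place of 1074 between ages and 1 for the interaction. With Fmn2-/- replicates 2 and 3 of 8 months summed they were 5 at 8 months and 227 for the interaction. In the cross against mice without APP, 2 members were called in place of 1 with only the lane 7 run of mice with 2 runs, and also without the 3 mice high in choroid plexus markers, an exclusion chosen after seeing the data that left 56 genes between the labels of the cross.

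Replicate numbers did not pair the mice. With the replicate block 2, 4 and 30 genes were called for Fmn2 at 3 and 8 months and the interaction. Under the block the log2 fold changes of Lyz2 (-0.21) and Lamp2 (0.0088) at 3 months and of Lamp1 (0.011) and Grn (0.053) between the labels of the cross turned direction, and 7 members were called at 4 months as before.

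With the correction for exon length and GC content the log2 fold changes that turned were Lamp2 (0.081) at 3 months, Hexa (0.048) and Grn (0.11) at 8 months, Lamp1 (0.019) between the labels, Lamp1 (-0.015) in the cross against mice without APP, and Lamp2 (-0.0020) and Grn (0.070) in the interaction. With lane they were Cd68 (0.14) and Gusb (-0.032) at 3 months, Lyz2 (-0.076), Lamp1 (-0.0040) and Grn (0.016) at 8 months, Lamp1 (0.012) and Grn (0.025) between the labels, Lyz2 (-0.32), Lamp1 (-0.14) and Lamp2 (-0.16) between ages and Lyz2 (-0.14) in the interaction. Hexa was at -0.013 between the labels without the mice high in choroid plexus markers.

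Leaving out 1 mouse at a time, genes called ranged from 3 to 49 at 3 months (leaving out the first wild-type and the first Fmn2-/- mouse), from 4 to 3087 at 8 months (leaving out wild-type mouse 1 and wild-type mouse 2), from 73 to 171 between the labels of the cross (without FMN2 +/+ APP replicate 1 and FMN2-/-_APP replicate 2) and from 8 to 2791 in the interaction (without the same 2 mice as at 8 months). Members called ranged from 0 to 1 at 8 months, between ages and in the interaction, and from 1 to 2 in the cross against mice without APP. Log2 fold changes that turned ranged at 3 months from -0.33 to 0.30 in Lyz2, -0.083 to 0.012 in Lamp2 and -0.086 to 0.031 in Cd68. At 8 months they ranged from -0.077 to 1.09 in Lyz2, -0.0041 to 0.061 in Lamp1, -0.14 to 0.099 in Grn and -0.094 to 0.033 in Gusb. Between the labels they ranged from -0.011 to 0.11 in Hexa, -0.046 to 0.030 in Grn and -0.057 to 0.014 in Lamp1. Between ages they ranged from -0.068 to 0.028 in Laptm5, -0.019 to 0.63 in Lyz2 and -0.011 to 0.12 in Grn, and in the interaction from -0.19 to 1.06 in Lyz2 and -0.26 to 0.0023 in Grn. With 3 Fmn2+/+ mice at 8 months and as few as 12 reads of Lyz2 in 1 of them, small differences in Lyz2 could not be resolved there.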
